A study of Mus musculus with 14 samples.

Results

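Plasmacytoid dendritic cells are a lineage of dendritic cell that matures in the bone marrow and is known for making large amounts of type I interferon when TLR7 or TLR9 binds nucleic acid in its endosomes. Their identity depends on the E protein TCF4, also called E2-2, which holds the lineage in place together with SPIB and RUNX2, and in mice the cells are recognised by the surface receptors Siglec-H and BST2. Mouse plasmacytoid dendritic cells normally carry B220 as well. The results below concern 8 genes that mark or run this lineage: Siglech, Bst2, Ccr9, Pacsin1, Tcf4, Spib, Runx2 and Dntt. They were chosen by symbol and for their known roles, but with earlier results of these data known, so counts of members called describe them only. All 8 were listed in the dendritic cell table, among 24980 genes, and in the monocyte and macrophage table, among 17118 genes, and all 8 passed the filter on low values in both. In each table Pacsin1 passed it through 1 group alone, the PAM3CSK4 libraries in dendritic cells and the macrophage libraries in the other, so a difference in that gene was built into the filter.

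RNA was sequenced from flow-sorted marrow cells of mice in which GFP replaces 1 copy of Cx3cr1 (Cx3cr1 gfp/+), an allele that every group shared, although the design text of the series calls the mice wild type. Dendritic cells (GFP-high, MHC class II high, CD11c-high, Gr-1-negative and B220-negative) came from mice given PAM3CSK4 (4 libraries), a synthetic lipopeptide that activates TLR2 paired with TLR1, or vehicle alone (4 libraries). Macrophages (3 libraries; GFP-negative, MHC class II high, CD169-positive, Gr-1-negative and B220-negative) and monocytes (3 libraries; GFP-high, CD115-positive and B220-negative, with Gr-1-low and Gr-1-high cells together) were taken at baseline. PAM3CSK4 was given as a single dose, whose size the labels do not give, nor do they give the time to collection, the age and sex of the mice, or whether the libraries came from separate mice. The p-values therefore rest on the spread among libraries, some of which may be technical. Every gate left out B220-positive cells, the cells among which mouse plasmacytoid dendritic cells are normally found. Values are treated as CPM and appear not to be divided by the length of the gene, so levels are compared within a gene and not between genes.

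The markers behind the gates were present in part. H2-Ab1, a chain of MHC class II, was at 949, 996, 1401 and 194 CPM in PAM3CSK4 replicates 1 to 4, each below the 1878 to 3155 CPM of vehicle libraries, although both were sorted as MHC class II high. The dendritic cell genes Itgax (CD11c) and Flt3 were at 181 to 283 and 130 to 282 CPM in PAM3CSK4 replicates 1 to 3, and at 170 to 272 and 194 to 393 CPM in vehicle libraries. PAM3CSK4 replicate 4 stood apart. It had 27.5 CPM of Itgax, 35.8 of Flt3 and 31.3 of Cx3cr1, its correlation with the other PAM3CSK4 libraries was 0.879 to 0.894 (log2 values, across genes), and its 12 neutrophil genes summed to 11730 CPM, against 617 to 1540 in the other PAM3CSK4 libraries and 574 to 1022 in vehicle libraries. Results for dendritic cells are therefore given with and without that library. The other PAM3CSK4 libraries also differed from vehicle ones in Adgre1, at 104, 709 and 228 CPM in replicates 1 to 3, against 43.0 to 98.8 CPM. Mertk was at 11.7, 82.1 and 15.7 CPM in these, against 9.90 to 35.7 CPM in vehicle libraries, so that replicate 2 alone was above them. Siglec1, which encodes the CD169 of the macrophage gate, did not set the populations apart, with 18.9, 18.6 and 25.2 CPM in macrophage replicates 1 to 3, 34.7, 2.20 and 14.1 CPM in monocyte replicates 1 to 3, and 32.1 to 59.4 CPM in vehicle dendritic cells. Macrophage libraries had 24.9 to 52.9 CPM of Csf1r and 22.3 to 23.8 CPM of Cd68, against 328 to 860 and 79.8 to 137 CPM in monocyte libraries. Adgre1 was lower in macrophages too, at 16.2 to 32.65 CPM against 42.6 to 93.9 CPM. Vcam1 and Mertk were higher in macrophages without overlap, at 61.3 to 109 and 11.6 to 15.9 CPM, against 12.9 to 29.8 and 2.38 to 9.055 CPM in monocytes. Cx3cr1, the gene that carries the GFP, was at 1.54 to 5.905 CPM in macrophages and 83.1 to 208 CPM in monocytes. One CPM stood for 28.2 to 65.3 reads in PAM3CSK4 libraries, 38.0 to 71.6 in vehicle libraries, 33.5 to 75.1 in macrophage libraries and 49.9 to 56.5 in monocyte libraries.

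The upstream sequence is shown for the 3 genes that passed the test in dendritic cells, Siglech, Pacsin1 and Dntt, and for Bst2, the interferon-inducible member. Each is the 250 bases before the RefSeq transcript start, read in the direction of transcription (GRCm38.p6). The window of Pacsin1 belongs to a start inside the span that the deposited table gives for the gene. Capitals mark matches, on either strand, to CANNTG (the E-box read by E proteins such as TCF4), GAGGAA (a core of PU.1 and SPIB sites), TGTGGT or TGCGGT (Runx cores) and to GAAA, 2 bases of any kind and GAAA (a core of the interferon-stimulated response element).
Siglech (chr7:55767934-55768183, plus strand): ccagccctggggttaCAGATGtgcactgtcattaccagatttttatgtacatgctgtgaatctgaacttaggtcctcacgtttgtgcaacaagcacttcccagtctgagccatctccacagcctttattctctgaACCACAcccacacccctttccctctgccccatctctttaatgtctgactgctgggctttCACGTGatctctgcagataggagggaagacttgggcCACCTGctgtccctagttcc
Pacsin1 (chr17:27684989-27685238, plus strand): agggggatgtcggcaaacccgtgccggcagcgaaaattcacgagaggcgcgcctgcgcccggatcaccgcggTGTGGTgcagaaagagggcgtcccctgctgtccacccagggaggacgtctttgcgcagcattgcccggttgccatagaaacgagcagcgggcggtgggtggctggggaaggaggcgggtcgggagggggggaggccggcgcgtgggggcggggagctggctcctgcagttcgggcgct
Dntt (chr19:41029025-41029274, plus strand): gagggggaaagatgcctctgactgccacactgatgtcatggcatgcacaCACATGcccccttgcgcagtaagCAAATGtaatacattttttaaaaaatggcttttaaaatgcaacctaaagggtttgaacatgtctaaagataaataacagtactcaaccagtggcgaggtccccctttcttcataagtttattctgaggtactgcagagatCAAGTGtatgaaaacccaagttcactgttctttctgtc
Bst2 (chr8:71537473-71537722, minus strand): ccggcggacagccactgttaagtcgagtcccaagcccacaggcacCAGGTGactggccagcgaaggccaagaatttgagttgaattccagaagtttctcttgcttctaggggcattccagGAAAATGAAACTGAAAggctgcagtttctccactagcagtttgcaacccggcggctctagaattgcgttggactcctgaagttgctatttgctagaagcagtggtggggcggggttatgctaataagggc

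A RefSeq window was at hand for 7 of the 8 genes, all but Tcf4. E-box letters occurred 3 times in the windows of Siglech and Dntt, 2 times in those of Ccr9 and Spib, once in those of Bst2 and Runx2, and not in that of Pacsin1. Of all 32851 mouse windows of this length, 66.2% held at least 1 E-box. The form CAGGTG was present in Siglech, Bst2 and Ccr9 and in 17.2% of all windows. TGTGGT was present in Siglech, Pacsin1 and Runx2 and in 14.0% of all windows, and in Runx2 it overlapped the E-box. The interferon response core was found in Bst2 alone among the 7, in 2 overlapping copies, and in 2.98% of all windows. GAGGAA and TGCGGT, held by 23.3% and 5.1% of all windows, were in none of the 7. These matches describe the letters of the windows and are not evidence of binding.

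**Figure D1:**
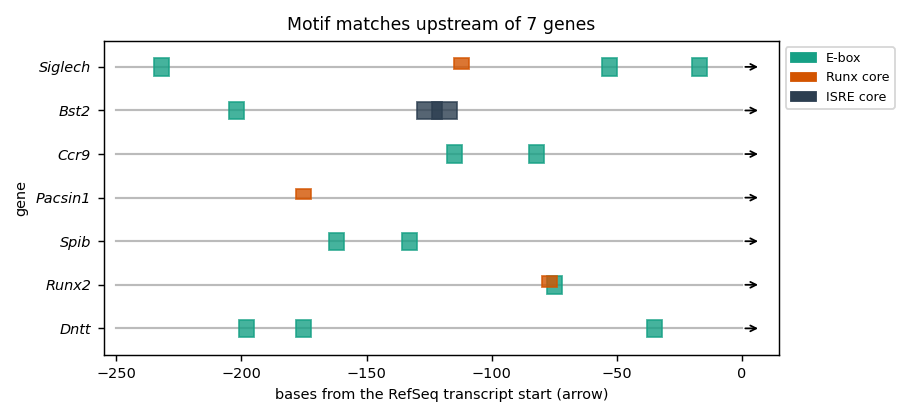
Positions of the motif letters in the 250 bases before the RefSeq transcript start of 7 of the 8 genes. The x axis gives the distance in bases from the start (arrow), and coloured boxes give matches on either strand to the E-box, the Runx core TGTGGT and the interferon response core. Siglech and Dntt each hold 3 E-boxes, Pacsin1 holds none, and the interferon response core is found in Bst2 only.

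In dendritic cells after PAM3CSK4, 3 of the 8 genes rose: Siglech, Pacsin1 and Dntt, with means 12.4, 23.4 and 9.06 times those of vehicle dendritic cells. Pacsin1 had to be higher there to be tested at all, since no vehicle library reached the 1 CPM of the filter, and among the other 7 members the count was 2. Of these, Dntt reached 1 CPM in 4 PAM3CSK4 libraries but in only 1 vehicle library, so its passing of the filter also leaned on the PAM3CSK4 libraries. The other members, Bst2, Ccr9, Tcf4, Spib and Runx2, had means 1.69 to 2.69 times the vehicle means but did not pass the test with all libraries. Without PAM3CSK4 replicate 4, Bst2 and Tcf4 rose as well. No member fell by the limma test, and 0 had an unadjusted p under 0.05 with a change below 0. Without the filter on low values all 3 calls were lost (limma adjusted p 0.146 for Siglech, 0.0995 for Pacsin1 and 0.0765 for Dntt). By comparison, 5.12% of the 11377 genes tested passed the same threshold in either direction and 2.82% passed it as rises. The log2 change was above 0 for all 8 members, as it was for 67.3% of all genes tested. The median log2 change was 1.03 over the members, 1.00 over the 7 without Pacsin1, and 0.20 over all genes tested.

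Siglech encodes Siglec-H, a sialic acid-binding surface receptor of mouse plasmacytoid dendritic cells that signals through DAP12 (chr7:55768184-55778926, plus strand, mm10). It had 84.8, 18.7, 66.4 and 4.83 CPM in PAM3CSK4 replicates 1 to 4, against 1.39, 5.61, 2.62 and 4.45 CPM in vehicle replicates 1 to 4. PAM3CSK4 replicates 1 and 3 were far above every vehicle library and replicate 2 was above them too, while replicate 4 lay inside the vehicle range, so the groups overlapped. The means were 43.7 ± 38.0 CPM after PAM3CSK4 and 3.52 ± 1.88 CPM after vehicle (SD, n = 4 each), with a log2 change of 2.76 ± 0.70 (SE; limma adjusted p = 0.0424). Without PAM3CSK4 replicate 4 the log2 change was 3.53 ± 0.46 (limma adjusted p = 0.000421) and the groups no longer overlapped. With all libraries the call was narrow: it was lost when any 1 of the other 7 libraries was left out (limma adjusted p 0.053 to 0.145), and after rescaling to a common total, median centring or quantile normalization (limma adjusted p 0.0547, 0.064 and 0.0618).

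Bst2 encodes BST2 (tetherin, PDCA-1), a membrane protein that holds budding virus particles at the cell surface and that interferon induces in many cell types (chr8:71534262-71537438, minus strand). It had 45.1, 32.5, 47.9 and 17.5 CPM in PAM3CSK4 replicates 1 to 4 and 13.8, 26.8, 17.7 and 26.3 CPM in vehicle replicates 1 to 4. PAM3CSK4 replicates 1 to 3 were above all vehicle libraries, and replicate 4 lay among them. The log2 change was 0.68 ± 0.33 (SE; limma adjusted p = 0.218) with all libraries and 0.98 ± 0.28 (limma adjusted p = 0.0475) without PAM3CSK4 replicate 4.

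Ccr9 encodes the receptor for the chemokine CCL25, which guides plasmacytoid dendritic cells and T cells to the gut and thymus (chr9:123767211-123783458, plus strand). It had 8.28, 2.66, 4.55 and 1.53 CPM in PAM3CSK4 replicates 1 to 4 and 1.23, 2.61, 2.20 and 3.30 CPM in vehicle replicates 1 to 4. Replicates 1 and 3 after PAM3CSK4 were the highest of the 8 libraries, and the other 2 lay inside the vehicle range. The difference did not pass the test with all libraries (log2 change 0.53 ± 0.38, limma adjusted p = 0.402) or without PAM3CSK4 replicate 4 (0.82 ± 0.33, limma adjusted p = 0.165). Its exons overlap those of AC165425.1 on the other strand by 1932 bases in GENCODE vM21, and since the strand setting of the counting is not given in the sources used here, reads of both genes cannot be told apart.

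Pacsin1 encodes a membrane-bending adaptor of endocytosis that is best known from neurons and that plasmacytoid dendritic cells need for full interferon production through TLR7 and TLR9 (chr17:27655591-27711118, plus strand). It had 9.31, 2.42, 9.47 and 1.18 CPM in PAM3CSK4 replicates 1 to 4, against 0.236, 0.206 and 0.516 CPM in vehicle replicates 2 to 4 and the lowest value of the table, 0.0001 CPM, in vehicle replicate 1. All 4 PAM3CSK4 libraries were above all 4 vehicle libraries, but the filter asked for 4 libraries at 1 CPM and no vehicle library reached it, so the gene entered the test only because the groups did not overlap and its p is no support for a rise. The vehicle values rest on few reads, about 0, 8.95, 8.05 and 30.8 in replicates 1 to 4, against about 591, 68.4, 287 and 77.0 reads in PAM3CSK4 replicates 1 to 4. Means were 5.60 ± 4.41 CPM after PAM3CSK4 and 0.239 ± 0.212 CPM after vehicle (SD, n = 4 each), with a log2 change of 2.12 ± 0.46 (SE; limma adjusted p = 0.0247), or 2.55 ± 0.36 (limma adjusted p = 0.000796) without PAM3CSK4 replicate 4. The call was lost without any 1 of the 4 vehicle libraries or without PAM3CSK4 replicate 3 (limma adjusted p 0.054 to 0.0899).

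Among the 3 transcription factors, Tcf4 encodes the E protein that directs and maintains the lineage (chr18:69344492-69687968, plus strand). It had 81.9, 32.9, 84.3 and 13.1 CPM in PAM3CSK4 replicates 1 to 4 and 16.8, 18.2, 26.0 and 17.8 CPM in vehicle replicates 1 to 4. Replicates 1 to 3 after PAM3CSK4 lay above every vehicle library and replicate 4 below every one. The log2 change was 1.07 ± 0.48 (SE; limma adjusted p = 0.192) with all libraries and 1.61 ± 0.32 (limma adjusted p = 0.00716) without PAM3CSK4 replicate 4.

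Spib encodes the Ets factor SPIB, which plasmacytoid dendritic cells share with B cells (chr7:44525995-44532072, minus strand). It had 137, 55.4, 112 and 16.5 CPM in PAM3CSK4 replicates 1 to 4 and 24.4, 59.6, 48.3 and 41.7 CPM in vehicle replicates 1 to 4. PAM3CSK4 replicates 1 and 3 were the highest and replicate 4 the lowest of the 8 libraries, with replicate 2 inside the vehicle range. The log2 change was 0.56 ± 0.54 (SE; limma adjusted p = 0.540), and 1.18 ± 0.34 (limma adjusted p = 0.0531) without PAM3CSK4 replicate 4.

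Runx2, best known as the master factor of bone-forming cells, is needed for mature plasmacytoid dendritic cells to leave the marrow (chr17:44495987-44814798, minus strand). It had 105, 38.3, 229 and 37.0 CPM in PAM3CSK4 replicates 1 to 4 and 23.0, 31.1, 49.3 and 57.8 CPM in vehicle replicates 1 to 4. PAM3CSK4 replicates 1 and 3 were again the highest, and the other 2 lay inside the vehicle range. The difference did not pass the test with all libraries (log2 change 1.00 ± 0.52, limma adjusted p = 0.250) or without PAM3CSK4 replicate 4 (1.34 ± 0.47, limma adjusted p = 0.107). Of 10 osteoblast and stromal genes, 4 were tested and 0 passed the limma test, and 0 had an unadjusted p under 0.05. Their log2 changes were -0.44 for Cxcl12, 0.33 for Spp1, -0.20 for Col1a2 and -0.09 for Col1a1. Col1a1, the main collagen of bone, had 1.44, 1.49, 1.75 and 15.4 CPM in PAM3CSK4 replicates 1 to 4 and 1.06, 2.72, 1.05 and 21.3 CPM in vehicle replicates 1 to 4. Runx2 overlaps the antisense gene Runx2os1 by 519 exonic bases, and their reads cannot be told apart either.

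Dntt encodes terminal deoxynucleotidyl transferase, the enzyme that adds untemplated bases while antigen receptor genes are joined, and it is found in early lymphoid cells and in some plasmacytoid dendritic cells (chr19:41029275-41059526, plus strand). It had 9.22, 1.86, 7.97 and 10.2 CPM in PAM3CSK4 replicates 1 to 4, against 0.583, 0.635, 0.861 and 1.15 CPM in vehicle replicates 1 to 4. All PAM3CSK4 libraries were above all vehicle libraries, but only 1 vehicle library reached the 1 CPM of the filter. Dntt was the one member that was highest in PAM3CSK4 replicate 4. Means were 7.32 ± 3.76 CPM after PAM3CSK4 and 0.808 ± 0.260 CPM after vehicle (SD, n = 4 each), and the log2 change was 2.04 ± 0.39 (SE; limma adjusted p = 0.0149), or 1.84 ± 0.38 (limma adjusted p = 0.00932) without PAM3CSK4 replicate 4. The call was lost without vehicle replicate 1 or vehicle replicate 2 (limma adjusted p 0.0603 and 0.0537).

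**Figure D2:**
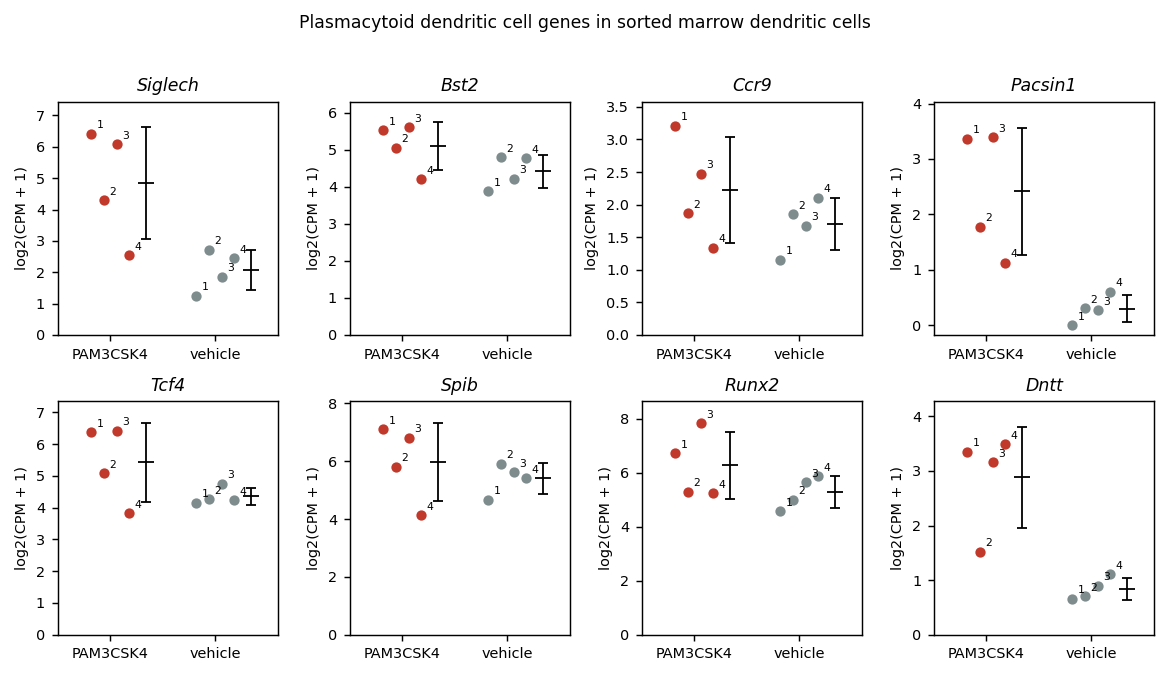
Level of each of the 8 genes in sorted dendritic cells, as log2(CPM + 1) on the y axis, for 4 PAM3CSK4 libraries (left) and 4 vehicle libraries (right). Each point is 1 library with its replicate number, and the bar beside the points gives the mean ± SD. PAM3CSK4 replicates 1 and 3 are the highest of the 8 libraries for every gene but Dntt, replicate 4 is inside or below the vehicle range for 6 of the 8 genes, and Pacsin1 and Dntt are the genes whose groups do not overlap.

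Within the PAM3CSK4 group most members were high in the same libraries. Replicates 1 and 3 were the highest of the 8 libraries for 7 members, and for Dntt they followed replicate 4. The summed level of the 8 genes was 480, 185, 561 and 102 CPM in PAM3CSK4 replicates 1 to 4, and 81.2, 145, 147 and 153 CPM in vehicle replicates 1 to 4. The groups did not overlap for 2 of 8 members with all libraries, against 14.8% of all genes tested. Without Pacsin1, whose lack of overlap the filter fixed, the count was 1 of 7, near that share. Without PAM3CSK4 replicate 4 they did not overlap for 5 of 8 (4 of 7 without Pacsin1), against 19.3% of all genes tested. The count of members past the test was then 5 of 8, or 4 of 7 without Pacsin1. Of 11499 genes, 6.83% passed in either direction and 4.03% as rises. In sorted bulk samples a larger share of cells of one type and more RNA per cell cannot be told apart.

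**Figure D3:**
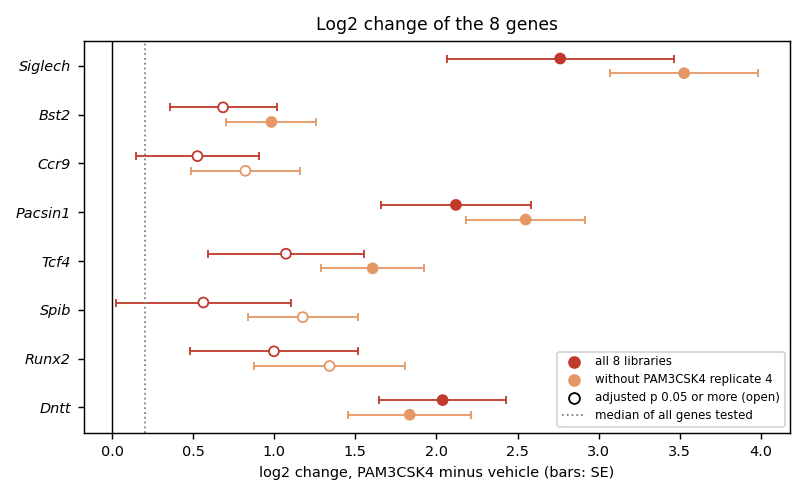
Log2 change of each gene between PAM3CSK4 and vehicle dendritic cells on log2(CPM + 1), with bars for the SE, for all 8 libraries (dark) and without PAM3CSK4 replicate 4 (light). Filled points passed the limma test at an adjusted p under 0.05, and the dotted line is the median of all genes tested, 0.20. All points lie above 0, and leaving out replicate 4 raises every value but that of Dntt.

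Genes with the library pattern most like that of Siglech were looked for among the 568 tested genes whose SD over the 8 dendritic cell libraries was at least 0.5 times that of Siglech, by the root mean square difference of the mean-centred log2 profiles. The nearest were Ptprf, a receptor tyrosine phosphatase (0.40), Epha2, an ephrin receptor (0.43), Cdh5, VE-cadherin (0.43), Atp1b1, a subunit of the sodium pump (0.51), and Adam11 (0.58). Epha2 and Atp1b1 also stood on the list of other plasmacytoid dendritic cell genes used below. Ptprf had 43.6, 9.07, 38.5 and 3.29 CPM in PAM3CSK4 replicates 1 to 4 and 1.31, 5.22, 2.86 and 3.995 CPM in vehicle replicates 1 to 4, so that it too was high in PAM3CSK4 replicates 1 and 3. Of the other members, Pacsin1 ranked 7, Tcf4 28, Runx2 44, Spib 45 and Dntt 78 of the 568, while Bst2 and Ccr9 varied too little to enter. The likeness is over 8 libraries of 1 experiment and is given as a description.

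Of 20 other surface and effector genes of plasmacytoid dendritic cells, 18 were tested and 12 had a log2 change above 0, with a median of 0.66. By the limma test 6 rose and 1 fell, but the fall and 1 of the rises were of genes that passed the filter through 1 group alone. Ly6d, a surface protein of B-lineage and plasmacytoid dendritic cell precursors, had 53.6, 14.1, 73.5 and 5.82 CPM in PAM3CSK4 replicates 1 to 4, against 0.307, 0.950, 0.102 and 1.67 CPM in vehicle replicates 1 to 4. The groups did not overlap, and the log2 change was 3.94 ± 0.64 (SE; limma adjusted p = 0.00756). Only 1 vehicle library reached 1 CPM of Ly6d, so its passing of the filter leaned on the PAM3CSK4 libraries. Mctp2, a membrane protein with calcium-binding domains, had 40.4, 7.55, 23.2 and 11.1 CPM in PAM3CSK4 replicates 1 to 4 and 1.70, 1.64, 1.25 and 1.51 CPM in vehicle replicates 1 to 4, a log2 change of 2.83 ± 0.41 (limma adjusted p = 0.00374). Atp1b1 rose by 2.60 ± 0.49 on the log2 scale (limma adjusted p = 0.0134), a call lost without vehicle replicate 1 (limma adjusted p = 0.0612). The other rises, named to complete the count, were Epha2 (2.69), Cox6a2 (2.08) and Lair1 (1.58), and these calls were lost without 1 vehicle library (replicate 1, 2 or 3 for Epha2 and Cox6a2, replicate 1 or 4 for Lair1), with limma adjusted p of up to 0.0811. The fall was that of Cd209d, a C-type lectin of the CD209 family, whose near copies make its reads uncertain. It had 0.521, 0.213, 0.264 and 0.0001 CPM in PAM3CSK4 replicates 1 to 4 and 9.51, 9.28, 14.5 and 10.2 CPM in vehicle replicates 1 to 4 (log2 change -3.24 ± 0.24). Cox6a2 passed the filter through the PAM3CSK4 libraries alone and Cd209d through the vehicle libraries alone, so these 2 of the 7 calls support nothing. Without PAM3CSK4 replicate 4 the count was 7 rises and 1 fall.

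Among genes through which plasmacytoid dendritic cells sense nucleic acid and make or answer interferon, 1 rose and 1 fell. The list held 16 genes, of which 11 were tested, and the median log2 change was 0.04. Plscr1, a phospholipid scramblase that takes part in TLR9 trafficking, had 11.4, 26.5, 22.5 and 31.5 CPM in PAM3CSK4 replicates 1 to 4 and 3.00, 5.62, 5.70 and 4.18 CPM in vehicle replicates 1 to 4, without overlap (log2 change 2.04 ± 0.31, limma adjusted p = 0.00539). Irf5, a transcription factor downstream of Toll-like receptors, fell by 0.98 ± 0.25 on the log2 scale (limma adjusted p = 0.0429), a call lost when any 1 of 6 libraries was left out (vehicle replicate 2, 3 or 4, or PAM3CSK4 replicate 1, 3 or 4; limma adjusted p of up to 0.121). Irf7, the factor that drives interferon alpha in these cells, had 11.2, 21.2, 21.7 and 8.14 CPM in PAM3CSK4 replicates 1 to 4 and 25.1, 23.2, 17.4 and 24.8 CPM in vehicle replicates 1 to 4 (limma adjusted p = 0.243). Unc93b1, the chaperone of TLR7 and TLR9, had a log2 change of -0.45 ± 0.32 (limma adjusted p = 0.402). The 5 interferon genes listed (Ifnb1, Ifna1, Ifna2, Ifna4 and Ifna5) were at the lowest value in all 8 libraries. Of 28 interferon-stimulated genes 27 were tested, 0 rose and 1 fell in the limma test, with 0 above and 5 below at an unadjusted p under 0.05 and a median log2 change of -0.26. The fall was that of Samd9l (log2 change -1.25 ± 0.27, limma adjusted p = 0.0247), a call lost without vehicle replicate 2 or 3 or PAM3CSK4 replicate 3 (limma adjusted p of up to 0.085). The next of that list were Oas3 (-1.13), Ifit3 (-1.27) and Mx1 (-0.76), with limma adjusted p of 0.0815, 0.0953 and 0.173.

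Transcription factors that work with, beside or against TCF4 gave 1 fall and 0 rises in the limma test among 19 tested of 20 listed (3 lower and 2 higher at an unadjusted p under 0.05), with a median log2 change of 0.32. Irf4, a factor of conventional dendritic cells and lymphocytes, had 57.1, 24.0, 29.2 and 4.53 CPM in PAM3CSK4 replicates 1 to 4 and 87.7, 102, 117 and 96.9 CPM in vehicle replicates 1 to 4, without overlap (log2 change -2.19 ± 0.54, limma adjusted p = 0.0387). That call was lost without any 1 of the 4 vehicle libraries or without PAM3CSK4 replicate 2 or 3 (limma adjusted p of up to 0.106). Ikzf3, Stat3 and Cbfa2t3, the last a partner of TCF4, had log2 changes of -1.18, 0.80 and -0.89 with limma adjusted p of 0.0778, 0.0794 and 0.131. The adaptors through which Siglec-H signals and the other Pacsin genes gave 0 limma calls among 4 tested of 5, and 0 at an unadjusted p under 0.05. Tyrobp, which encodes DAP12, had 163, 205, 154 and 126 CPM in PAM3CSK4 replicates 1 to 4 and 191, 193, 174 and 225 CPM in vehicle replicates 1 to 4 (limma adjusted p = 0.418), and Pacsin2, Syk and Hcst had log2 changes of 0.46, 0.38 and -0.31, with limma adjusted p of 0.301, 0.483 and 0.522.

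Genes of other cell types moved beside the members. Of 12 conventional dendritic cell genes, 4 fell and 0 rose in the limma test (10 lower and 0 higher at an unadjusted p under 0.05), with a median log2 change of -1.48. Cd209a had 9.64, 1.70, 1.16 and 0.0001 CPM in PAM3CSK4 replicates 1 to 4, against 404, 443, 394 and 323 CPM in vehicle replicates 1 to 4 (log2 change -7.12 ± 0.54, limma adjusted p = 3.71e-05). Mgl2, Clec10a and Zbtb46 had log2 changes of -5.60, -4.27 and -1.68, of which that of Zbtb46 was lost without any 1 of 6 libraries (all vehicle libraries and PAM3CSK4 replicates 2 and 3; limma adjusted p of up to 0.0919). Neutrophil genes gave 1 rise, that of Mmp8 (log2 change 2.76, limma adjusted p = 0.0135, and 0.0598 without vehicle replicate 1), among 11 tested of 12, with 7 higher and 0 lower at an unadjusted p under 0.05 and a median log2 change of 1.90, and 6 rose without PAM3CSK4 replicate 1. Erythroid genes gave 3 rises (Hbb-bs, Alas2 and Hbb-bt) among 9 tested of 10, each lost without vehicle replicate 1, 2 or 3, and those of Alas2 and Hbb-bt also without PAM3CSK4 replicate 2 or 3 (limma adjusted p of up to 0.115). The log2 change was above 0 for 9 of the 9 (median 2.55), 7 were higher at an unadjusted p under 0.05, and 7 rose without PAM3CSK4 replicate 1. Their summed level was 99.6, 396, 282 and 1188 CPM in PAM3CSK4 replicates 1 to 4 and 27.9 to 225 CPM in vehicle libraries. The summed erythroid and neutrophil genes were highest in PAM3CSK4 replicates 4 and 2. Of the members, 7 were highest in PAM3CSK4 replicates 1 and 3, and Dntt was highest in replicate 4. Without PAM3CSK4 replicate 4 the limma test gave 6 falls and 0 rises of conventional dendritic cell genes (8 and 0 at an unadjusted p under 0.05), 3 rises and 2 falls of neutrophil genes and 3 rises of erythroid genes. It also gave 1 rise of the nucleic acid sensing list, 1 rise and 2 falls of the factors, 2 falls of interferon-stimulated genes, 2 rises of early lymphoid genes, 1 rise and 2 falls of mature B and plasma cell genes, and 1 rise and 1 fall of T and NK cell genes. The part of the other cell types in the result was not tested.

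Lymphoid genes are set beside Dntt and Spib, which lymphocytes express too. Of 16 early lymphoid and pro-B genes, 6 were tested and 0 passed the limma test (1 at an unadjusted p under 0.05), with a median log2 change of 0.48. Il7r, the receptor of interleukin 7, had 20.5, 12.4, 21.0 and 4.81 CPM in PAM3CSK4 replicates 1 to 4 and 1.22, 3.60, 7.73 and 2.67 CPM in vehicle replicates 1 to 4 (log2 change 1.70 ± 0.47, limma adjusted p = 0.0583). Notch1, Blnk and Kit had log2 changes of 0.57, 0.82 and -0.39, with limma adjusted p of 0.237, 0.261 and 0.344. Of the 16 genes, 6, 6, 7 and 11 reached 1 CPM in PAM3CSK4 replicates 1 to 4, against 6 or 7 in vehicle libraries, so replicate 4, the library highest in Dntt, also had the most of them. Of 16 mature B and plasma cell genes, 13 were listed and 8 tested. Among them Spic, which macrophages of the spleen also use, rose (2.29 ± 0.55, limma adjusted p = 0.0341, lost without any 1 of 5 libraries: all vehicle libraries and PAM3CSK4 replicate 3). Fcer2a, or CD23, which passed the filter through the vehicle libraries alone, had a log2 change of -1.35 ± 0.25. Cd74 and Sdc1 had log2 changes of -1.83 and 0.95 (limma adjusted p = 0.0717 and 0.159). Of the T and NK cell genes 5 were tested and 0 passed the limma test (1 at an unadjusted p under 0.05), and Cd4, Cd8a, Cd3e and Il2rb had log2 changes of -1.33, 0.81, -0.55 and -0.16. Whether lymphoid cells contribute to the values of Dntt and Spib was not tested.

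**Figure D4:**
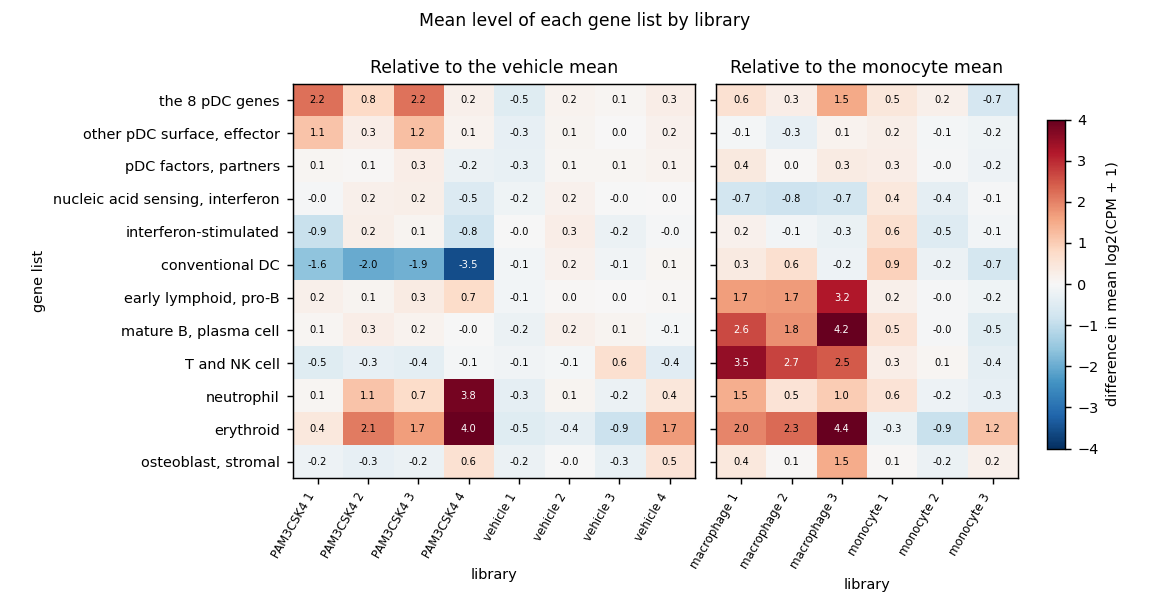
Mean log2(CPM + 1) of each gene list in each library (columns), as the difference from the mean of the vehicle libraries (left panel) or of the monocyte libraries (right panel); red is higher and blue lower. In the left panel the 8 genes (top row) are highest in PAM3CSK4 replicates 1 and 3, and neutrophil and erythroid genes in PAM3CSK4 replicate 4. In the right panel the 8 genes and the early lymphoid, mature B, erythroid and stromal lists are highest in macrophage replicate 3.

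At baseline the same 8 genes divided between macrophages and monocytes. Pacsin1, Dntt and Ccr9 were higher in macrophages, with means 34.5, 6.06 and 17.9 times those of monocytes, and Siglech was lower, while Bst2, Tcf4, Spib and Runx2 did not pass the test. Pacsin1 passed the filter through its macrophage libraries alone, and without it the count is 3 of 7, also 3 of 7 without overlap. Siglech reached 1 CPM in 1 macrophage and 3 monocyte libraries, and Ccr9 in 3 macrophage and 2 monocyte libraries. Their passing of the filter thus leaned on the group where each was high. In all, 4 of 8 members passed, against 20.2% of the 12188 genes tested, and they were the 4 whose groups did not overlap, against 34.2% of all genes. Higher in macrophages were 3 of 8 members, against 12.8% of all genes tested, and lower was 1 of 8, against 7.42%. The log2 change was above 0 for 5 of 8, against 57.4% of all genes tested. The 4 calls held when any 1 of the 6 libraries was left out. The members' median log2 change was 0.70, or 0.36 without Pacsin1, against 0.10 over all genes tested.

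Siglech had 0.808, 0.279 and 1.14 CPM in macrophage replicates 1 to 3, against 6.26, 9.03 and 2.53 CPM in monocyte replicates 1 to 3. Every macrophage library was below every monocyte library. The means were 0.744 ± 0.436 CPM in macrophages and 5.94 ± 3.26 CPM in monocytes (SD, n = 3 each), and the log2 change was -1.90 ± 0.40 (SE; limma adjusted p = 0.00479). The gene of its signalling adaptor, Tyrobp, was lower too, with 40.7, 36.6 and 42.9 CPM in macrophages and 265, 132 and 249 CPM in monocytes (log2 change -2.33 ± 0.29, limma adjusted p = 0.000164). Pacsin2, the broadly expressed relative of Pacsin1, was also lower (-0.80 ± 0.23, limma adjusted p = 0.0256), a call lost without any 1 library but monocyte replicate 2 (limma adjusted p of up to 0.12). These were the 2 calls among 4 tested genes of that list, in which Hcst and Syk had log2 changes of 0.98 and -0.40 (limma adjusted p = 0.165 and 0.477).

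Ccr9 had 13.0, 8.35 and 32.4 CPM in macrophage replicates 1 to 3 and 1.11, 1.18 and 0.713 CPM in monocyte replicates 1 to 3, without overlap (means 17.9 ± 12.8 CPM in macrophages and 1.00 ± 0.254 CPM in monocytes, SD, n = 3 each; log2 change 3.04 ± 0.42, limma adjusted p = 0.000343). Dntt had 29.8, 25.9 and 40.8 CPM in macrophages and 5.06, 9.71 and 1.14 CPM in monocytes, also without overlap (means 32.2 ± 7.72 CPM in macrophages and 5.31 ± 4.29 CPM in monocytes; log2 change 2.65 ± 0.48, limma adjusted p = 0.00206). Pacsin1 had 1.62, 1.13 and 5.41 CPM in macrophages and 0.124, 0.0001 and 0.113 CPM in monocytes, where these values stand for about 7, 0 and 6 reads. It entered the test only because all 3 macrophage libraries were above 1 CPM, so its groups could not overlap and its p is no support (log2 change 1.61 ± 0.39, limma adjusted p = 0.0118, a call lost with quantile normalization at 0.222). Macrophage replicate 3 was the highest library for all 3 genes.

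Spib was also highest in macrophage replicate 3, with 5.06, 8.69 and 75.2 CPM in macrophages and 21.8, 4.99 and 2.74 CPM in monocytes, so that the groups overlapped (log2 change 1.04 ± 0.83, limma adjusted p = 0.454). Without macrophage replicate 3 its log2 change was -0.06. Bst2 had 15.3, 8.20 and 15.2 CPM in macrophages and 22.1, 8.45 and 10.3 CPM in monocytes (log2 change -0.01 ± 0.38, limma adjusted p = 0.994). Tcf4 had 81.3, 56.3 and 128 CPM in macrophages and 76.1, 93.0 and 38.5 CPM in monocytes (0.36 ± 0.37, limma adjusted p = 0.567), and Runx2 had 89.0, 61.1 and 72.7 CPM in macrophages and 167, 124 and 57.1 CPM in monocytes (-0.52 ± 0.35, limma adjusted p = 0.367). For these 4 genes the ranges of the populations overlapped.

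**Figure D5:**
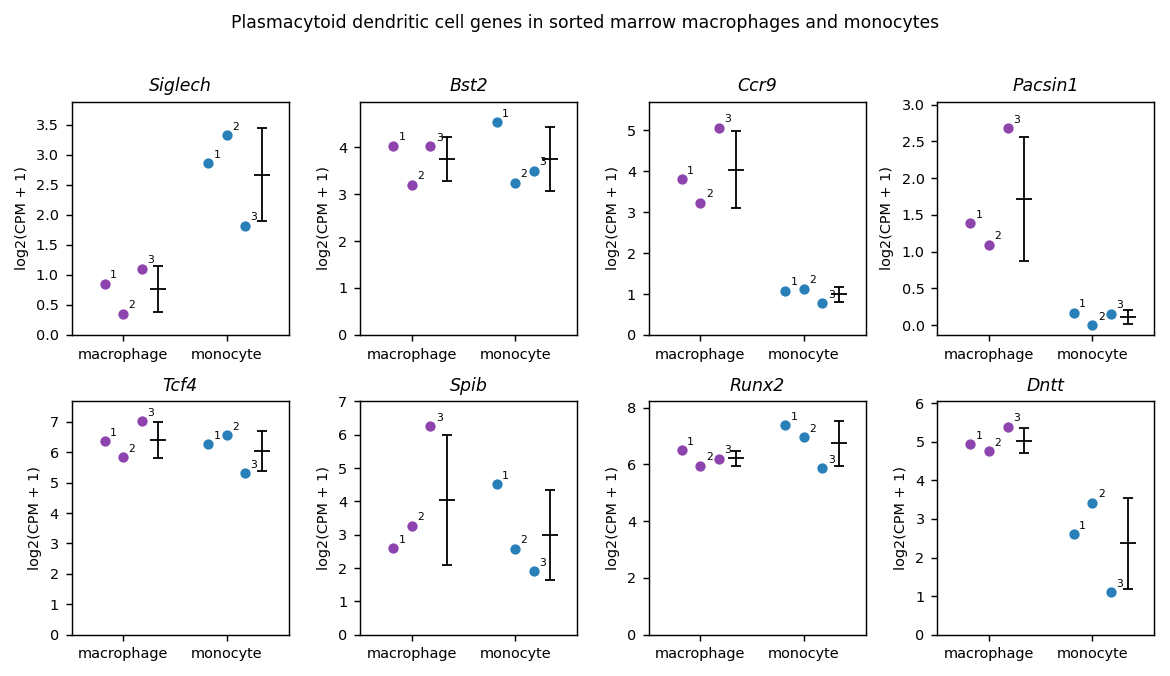
Level of each of the 8 genes, as log2(CPM + 1) on the y axis, in 3 macrophage libraries (left) and 3 monocyte libraries (right). Each point is 1 library with its replicate number, and the bar gives the mean ± SD. Macrophages lie above monocytes without overlap for Ccr9, Pacsin1 and Dntt and below them for Siglech. Macrophage replicate 3 is the highest library for Tcf4, Spib, Ccr9, Pacsin1 and Dntt.

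Many lymphoid and erythroid genes, and some stromal genes, were higher in the macrophage libraries. The neutrophil and conventional dendritic cell lists, whose counts are given below, went both ways. Of 12 early lymphoid and pro-B genes tested, 10 were higher in macrophages and 0 lower by the limma test (11 and 1 at an unadjusted p under 0.05), and of 12 mature B and plasma cell genes tested, 6 were higher and 0 lower (9 and 0 at an unadjusted p under 0.05). Cd79a, part of the B cell receptor, had 25.1, 11.4 and 159 CPM in macrophage replicates 1 to 3 and 0.619, 0.0001 and 0.281 CPM in monocyte replicates 1 to 3 (log2 change 4.87 ± 0.70). Jchain, which joins secreted antibodies, had 2029, 397 and 6891 CPM in macrophages and 8.26, 3.87 and 0.0564 CPM in monocytes (8.93 ± 0.90, limma adjusted p = 4.69e-05). Lef1 and Il7r, of the early lymphoid list, had log2 changes of 2.45 and 2.95. Pou2af1, Mzb1 and Ms4a1, of the mature B and plasma cell list, had log2 changes of 5.58, 5.74 and 4.43. Macrophage replicate 3, the highest for Tcf4, Spib, Ccr9, Pacsin1 and Dntt, was also the highest for Jchain and Cd79a. Its mature B and plasma cell genes summed to 9337 CPM, against 3678 and 2205 in the other macrophage libraries. Monocyte libraries had 248 to 1976 CPM. Jchain alone made up 2029, 397 and 6891 CPM of the sums in macrophage replicates 1 to 3. The same list, which includes Cd74, summed to 4390 to 6212 CPM in vehicle dendritic cells, whose values were scaled separately. There 7 or 8 of its 13 measured genes reached 1 CPM, against 12, 11 and 13 in macrophage replicates 1 to 3. Its mean log2(CPM + 1) was 2.665 to 3.097 in vehicle dendritic cells, against 4.845, 4.027 and 6.357 in those macrophage libraries. The sums are therefore no measure of the list as a whole, and the part of Cd74 in them was not tested. Erythroid genes (970.5 CPM, against 250.8 and 240.4) and stromal genes (90.0, against 18.6 and 10.9) were also highest in macrophage replicate 3. T and NK cell genes (127, against 373 and 227) and neutrophil genes (1875, against 3951 and 1636) were not. The T and NK cell list gave 9 higher and 0 lower of 11 by limma (11 and 0 at an unadjusted p under 0.05), led by Il2rb, Ncr1, Klrb1c and Cd3e (log2 changes 5.55, 5.09, 4.15 and 2.93), the erythroid list 10 of 10 higher, led by Car2 and Car1, and the osteoblast and stromal list 2 of 5 higher (Alpl and Cxcl12). With any 1 library left out, 6 of the 10 early lymphoid calls, 4 of the 10 erythroid calls (limma adjusted p of up to 0.0959) and 1 of the 2 stromal calls held, that of Cxcl12 being lost without monocyte replicate 2 or any macrophage library (up to 0.152). Of the calls, 6 early lymphoid, 3 mature B, 5 T and NK and 1 stromal ones were of genes that passed the filter through the macrophage libraries alone, Cd79a, Lef1, Ms4a1, Mzb1, Pou2af1, Ncr1, Klrb1c, Cd3e and Alpl among them, so those counts describe and support nothing. The part of these cells in the levels of Dntt, Ccr9, Spib, Pacsin1 and Tcf4 was not tested.

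The other lists gave a mixed pattern between macrophages and monocytes, where 12.8% of all genes tested were higher and 7.42% lower. Of 16 other surface and effector genes tested, 6 were higher in macrophages and 5 lower. Gzmb had 3.95, 2.23 and 2.09 CPM in macrophages and was listed at the lowest value in all 3 monocyte libraries, and so passed the filter through macrophages alone. Ly6c2, which the Gr-1 gate bears on, and Upb1 had log2 changes of -2.69 and -2.54. Nucleic acid sensing and interferon genes were mostly lower, with 7 of 11 lower and 1 higher and a median log2 change of -1.07. Plscr1 was the gene that was higher (1.75), and Ifnar2, Irf5 and Unc93b1 were among the lower ones (-1.25, -1.41 and -1.17), but 6 of the 8 calls of that list were lost without 1 library or another, those of Irf5 without macrophage replicate 1 and of Unc93b1 without macrophage replicate 1 or 2 among them (limma adjusted p of up to 0.201). Of 19 tested factors 2 were higher, Ikzf3 (3.87) and Id2 (2.07), an inhibitor of E proteins such as TCF4, and 4 were lower, among them Zeb2 (-2.18) and Nfil3 (-1.89). The conventional dendritic cell list gave 3 higher and 4 lower of 12, led by Xcr1 (5.64), Clec10a (-3.31), Cd209a (-4.21) and Sirpa (-2.31). The neutrophil list gave 7 higher and 3 lower of 11. The interferon-stimulated list gave 3 higher and 2 lower of 28, near the share of all genes tested, of which 20.2% passed. With any 1 library left out, 1 of those 5 interferon-stimulated calls held (limma adjusted p of up to 0.259), as did 4 of the 7 conventional dendritic cell calls (up to 0.168), 9 of the 10 neutrophil calls (up to 0.082) and 5 of the 6 calls of factors (up to 0.19).

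The genes whose pattern over the 6 macrophage and monocyte libraries was most like that of Siglech, among 3502 that varied enough, were Il13ra1 (root mean square difference 0.24), Fpr2 (0.30), Lpl (0.32), Skint3 (0.34) and Il6st (0.35). None of them was among the 5 nearest in dendritic cells. The nearest member was Runx2, at rank 526, and Pacsin1, Dntt and Ccr9, which differed in the opposite direction, ranked 2601, 3148 and 3280. Across the 4 populations, Siglech averaged 43.7 CPM in PAM3CSK4 dendritic cells, 3.52 in vehicle dendritic cells, 0.744 in macrophages and 5.94 in monocytes. Dntt averaged 7.32 CPM in PAM3CSK4 dendritic cells, 0.808 in vehicle dendritic cells, 32.2 in macrophages and 5.31 in monocytes. Ccr9 averaged 4.25 CPM in PAM3CSK4 dendritic cells, 2.33 in vehicle dendritic cells, 17.9 in macrophages and 1.00 in monocytes. The 2 tables were scaled separately and appear to have been counted in different ways, so these levels are set side by side and no difference between dendritic cells and the other populations was tested.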

How the data were processed

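Bulk RNA was sequenced from 14 libraries of sorted mouse marrow cells, purified with a small-sample column kit and depleted of ribosomal RNA, per the labels. The authors deposited 2 tables under the name FPKM. Most of their low values, less an added 0.0001, lie on whole multiples of 1 step per library (66.2% to 68.9% of values up to 50 steps lay within 0.05 steps in the dendritic cell table, 87.8% to 90.8% in the other, and at most 10.7% with a step 7% longer). The same step served short and long genes, though fewer values of long genes were whole in the dendritic cell table. The values are therefore treated as CPM, the deposited unit appearing not to be divided by gene length. One step was taken as 1 read. The share of whole values was 76.2% to 80.2% for genes of the shortest span (of 3 equal parts) and 57.9% to 60.6% for the longest in the dendritic cell table, and 85.7% to 89.9% and 91.3% to 93.1% in the other, too low for a count test and unlike between the tables. Deposited CPM summed to 350368 to 578711 per library. The submitters' processing notes name mm10, STAR 2.5.3a and Partek. Neither the annotation nor the strand setting is given in the sources used here.

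Tests used limma 3.58.1 in R 4.3.3 (lmFit, eBayes with trend) on log2(CPM + 1). They were two-sided, p-values were adjusted by Benjamini-Hochberg over every gene in the fit, and the threshold was 0.05, for genes with at least 1 CPM in 4 libraries (dendritic cells) or 3 (macrophages and monocytes). Such log2 changes understate those of low genes. The 8 members and 12 further gene lists were chosen with earlier results of these data known. Genes named are all members, up to 4 of each list by unadjusted p (2 genes that this rule names are not reported here), and the 5 nearest to Siglech; others were added to complete a count or to describe the sorted populations after their values were seen. A further 3 columns of the second table, whose names match no single sample, were not used, so the planned test of dendritic cells against the other populations was not run. Replicate numbers were not taken to pair libraries. Alternatives were no filter, a pseudocount of 0.1, rescaling to a common total, median centring, quantile normalization, a replicate block and leaving out each library. Promoter windows are from RefSeq (GRCm38.p6), and exon overlaps from GENCODE vM21.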

Additional observations from a re-analysis of the deposited data

Results flagged for a closer look

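Dntt after PAM3CSK4 held 1 library apart from the rest of its group: replicate 2, at 1.86 CPM, against 7.97 to 10.2 CPM in the other 3. The gap to the nearest library was 0.835 of the range of the group on the log2 scale, above Dixon's critical value for 4 libraries. Chance gives such a gap in about 1 group in 20, and 16 groups of 4 were looked at.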

How the results depend on the processing

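In dendritic cells the log2 change of all 8 members stayed above 0 under every alternative run, but the calls did not hold as well. Without the filter on low values 0 of the 8 members and 166 of all genes passed the limma test, against 3 and 582 as described; 3 members then had an unadjusted p under 0.05, and 1 of the other surface and effector genes rose, against 6. Leaving out 1 library gave 0 to 5 members and 184 to 1008 genes. Siglech was also lost after rescaling to a common total, median centring or quantile normalization (limma adjusted p 0.0547, 0.064 and 0.0618). Over all genes the median change was 0.20 (log2) as deposited and -0.02 after median centring, where that of the members was 0.82. The share of calls that were rises was 55.2% as deposited, 41.5% after rescaling, 29.9% after median centring and 35.1% after quantile normalization.

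Between macrophages and monocytes, leaving out 1 library gave 4 members each time and 1699 to 3364 genes, against 4 and 2468. Pacsin1 was lost with quantile normalization (log2 change 0.83, limma adjusted p = 0.222). Changes near 0 turned sign: Bst2 was at 0.16 after rescaling and ranged over -0.26 to 0.38, Tcf4 over -0.0060 to 0.65 and Spib over -0.061 to 1.80 with 1 library left out. The share of calls higher in macrophages was 63.4% as deposited, 73.3% after rescaling, 51.3% after median centring and 44.8% after quantile normalization. The cause of these differences was not tested.

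The labels give the groups the same replicate numbers, but not every pair correlated above 0.1, so the numbers were not taken as pairs. The correlations were -0.115 to 0.30 in dendritic cells, where 2 of 4 PAM3CSK4 libraries correlated best with their own number, and 0.0836 to 0.183 between macrophages and monocytes, where all 3 macrophage libraries did, a hint from the data and not from the design. With a replicate block 976 genes were called in dendritic cells and 2609 between macrophages and monocytes, with 3 and 4 members as before, and 5 neutrophil and 8 erythroid genes rose in dendritic cells, against 1 and 3. The counts of the other lists moved by over 1.5 times in 44 of the cases with a library left out and 16 of the others in dendritic cells, and in 26 and 15 between macrophages and monocytes.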
